A study of Homo sapiens with 8 samples.

Results

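ZIC2, ZIC5, OTX2, NES, NGFR, TUBB3 and SOX9, 7 genes of the neuroectoderm and neural crest, were followed in H1 human embryonic stem cells of SETD7 KO or WT genotype. They were chosen by name, and all 7 had values in both deposited tables: counts for 11644 genes at day 2 and FPKM (fragments scaled for transcript length and sequencing depth) for 14070 genes at day 0. H1 is an established embryonic stem cell line, and SETD7 is a lysine methyltransferase of histone H3 and other proteins. The groups were KO cells at day 2 (3 libraries) with WT cells at day 2 (3 libraries), and KO cells at day 0 (1 library) with WT cells at day 0 (1 library). All cells were maintained in mTESR medium, and a hematopoietic differentiation is given for every sample. How the knockout was made, and how many clones it comprises, is not given in the sources used here. Whether the 3 libraries of a group came from separate cultures is not said in the labels, and the p-values below cover library-to-library spread, which may be technical.

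The members mark early steps of the neural lineages, and several are also active before any neural cell exists. ZIC2 and ZIC5 are zinc finger transcription factors of the neural plate and its dorsal border, and OTX2 is a homeodomain factor of the pluripotent epiblast, the anterior streak and endoderm and the forebrain. NES is the intermediate filament of neural progenitors, TUBB3 a neuronal beta tubulin, NGFR the low-affinity neurotrophin receptor of crest cells, and SOX9 a transcription factor of crest and cartilage.

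In the day 2 cells, 4 of the 7 genes rose in the knockout and none fell, where 12.3% of all 11475 genes tested rose and 11% fell (23.3% in all; edgeR, adjusted p under 0.05). NGFR rose 2.39-fold, while ZIC5, ZIC2 and NES rose by 13.6%, 9.57% and 9.09%. OTX2, TUBB3 and SOX9 did not pass. The KO and WT libraries did not overlap for 5 members, the 4 above and OTX2, as for 37.7% of all genes tested. In the day 0 cells, with 1 library per genotype and so no replicate check, 6 of the 7 had lower FPKM in the knockout, where 53.8% of 13284 genes did. OTX2, SOX9 and ZIC2 were at least 1.5-fold lower in KO on the FPKM + 1 scale, as were 8.77% of genes, though SOX9 was not with a pseudocount of 5 FPKM, and TUBB3 was that much higher, as were 4.81% (13.6% in either direction). TUBB3 was at 86.7 FPKM in the knockout against 20.02 FPKM in wild type.

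Day 2 totals were 29647943 to 39553614 counts in the KO libraries and 27880068 to 32230627 counts in the WT libraries. SETD7 mRNA was 32.9, 28.9 and 33.7 CPM (counts scaled to the size of the library, with TMM factors) in the KO libraries, against 54.8, 56.2 and 55.6 CPM in the WT libraries (log2 fold change −0.80, edgeR adjusted p 9.51e-13). At day 0 it was 1.48 FPKM in the KO library and 3.53 FPKM in the WT library. Markers of primitive streak and nascent mesoderm were abundant in the day 2 cells, with a summed level over 12 tested genes of 3236 to 3302 CPM in KO against 3153 to 3195 CPM in WT libraries. Of these genes 5 rose and 3 fell, and the most abundant, MIXL1, was at 1568 CPM in KO and 1467 CPM in WT. Pluripotent stem cell markers (11 of 12 tested) summed to 4110 to 4148 CPM in KO against 3943 to 3993 CPM in WT libraries. In this list 3 genes rose and 1, NANOG (5.14 CPM in KO, 7.63 CPM in WT, −0.57, edgeR adjusted p 0.00127), fell. Most of the difference in the sum came from DNMT3B (697 CPM in KO, 621 CPM in WT) and TDGF1 (735 CPM in KO, 672 CPM in WT), and the median log2 fold change was 0.03. Of 12 neural lineage markers, 5 were tested, all of them members of the gene group, and SOX1, PAX6, LHX2, SIX3 and DCX were not analysed here on either day. Of 8 neural crest markers, 4 were tested, and SOX10, TFAP2B and PAX3 were not analysed here. The label of neural lineage genes therefore describes the genes and was not checked as an identity of these cells. In bulk RNA, fewer cells that express a gene and less RNA per cell cannot be told apart.

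The ZIC genes encode factors with a shared zinc finger domain that act with GLI proteins and on their own in early ectoderm. ZIC2 lies on chromosome 13 at 99981772 to 99986773 on the plus strand (GRCh38), and ZIC5 lies beside it at 99962964 to 99971909 on the minus strand. Their starts point away from each other and are separated by 9862 bases. The promoter windows are shown because the neighbouring genes differed between genotypes in the same direction on each day. They run from 250 bases before to 50 after a RefSeq transcript start (GRCh38.p14) and are written 5′ to 3′ on the strand of the gene. Capitals mark the GC box GGGCGG, the CCAAT box by its letters, the TATA box as TATAA and the TCF/LEF core as CTTTGA, each on either strand, and copies may overlap. The ZIC2 window is chr13:99981534-99981833 (plus), and the ZIC5 window, the outermost of 3, is chr13:99971860-99972159 (minus).
ZIC2: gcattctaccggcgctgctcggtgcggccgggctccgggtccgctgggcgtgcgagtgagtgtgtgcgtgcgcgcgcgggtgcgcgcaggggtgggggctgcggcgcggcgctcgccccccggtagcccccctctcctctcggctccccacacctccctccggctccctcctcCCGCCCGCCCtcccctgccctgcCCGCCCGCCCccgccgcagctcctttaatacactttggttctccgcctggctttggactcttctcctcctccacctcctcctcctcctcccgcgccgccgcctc
ZIC5: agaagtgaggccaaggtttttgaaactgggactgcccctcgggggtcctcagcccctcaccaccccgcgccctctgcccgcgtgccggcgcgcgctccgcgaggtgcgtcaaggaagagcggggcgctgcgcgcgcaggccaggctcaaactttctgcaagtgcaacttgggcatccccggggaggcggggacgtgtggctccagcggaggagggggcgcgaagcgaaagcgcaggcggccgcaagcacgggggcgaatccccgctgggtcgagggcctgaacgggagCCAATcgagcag

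The ZIC2 window held 4 copies of GGGCGG, which occurs in 45% of the 35116 RefSeq windows, and the ZIC5 window 1 copy of CCAAT, which occurs in 34.6%. Neither held TATAA (20.4% of windows) or CTTTGA (12.9%). The GC content was 75% in the ZIC2 and 70.3% in the ZIC5 window, against a median of 58.7% over all windows. The windows shown held 35 and 33 CG pairs, against a median of 14. The CCAAT of the ZIC5 window shown began 38 bases after the transcript start. The other ZIC5 windows held 18 and 22 CG pairs, at a GC content of 64% and 62%. The first of these held 1 copy each of GGGCGG and CCAAT, and the second 4 copies of CCAAT.

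ZIC2 was at 294, 275 and 273 CPM in KO libraries 1, 2 and 3 of day 2, against 257, 259 and 252 CPM in WT libraries 1, 2 and 3. The genotypes did not overlap. ZIC2 averaged 280 ± 11.7 CPM in KO and 256 ± 3.46 CPM in WT (SD, n = 3 each), for which edgeR's quasi-likelihood test gave a log2 fold change of 0.13 with an SE of 0.033 (adjusted p 0.00356). ZIC5 was at 69.2, 71.8 and 69.7 CPM in the KO libraries, against 65.8, 60.1 and 59.7 CPM in the WT libraries. Again all KO libraries lay above all WT libraries, and WT library 1 was the nearest to them. ZIC5 averaged 70.2 ± 1.41 CPM in KO and 61.9 ± 3.42 CPM in WT (SD, n = 3 each), and the log2 difference in edgeR was 0.18 (SE 0.048; adjusted p 0.00455).

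The ratio of ZIC2 to ZIC5 counts, not scaled for length, was 4.25, 3.82 and 3.91 in KO libraries and 3.90, 4.31 and 4.23 in WT libraries. The ranges overlapped, so the balance of the 2 genes did not separate the genotypes. The sum of the pluripotency markers, of which 7 of 11 did not pass the test, was higher in every KO library too, and their part in the ZIC2 and ZIC5 differences was not tested.

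At day 0 ZIC2 and ZIC5 had the opposite order. ZIC2 was at 35.6 FPKM in the KO library and 62.3 FPKM in the WT library, and ZIC5 at 10.6 FPKM in the KO library and 14.3 FPKM in the WT library. The log2 ratios of FPKM + 1 were −0.79 for ZIC2 and −0.41 for ZIC5. A ratio at or below that of ZIC2 was found in 4.03% of the 13284 genes with at least 1 FPKM in either library, and one at or below that of ZIC5 in 16.6%. The median over all these genes was −0.03.

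**Figure D1:**
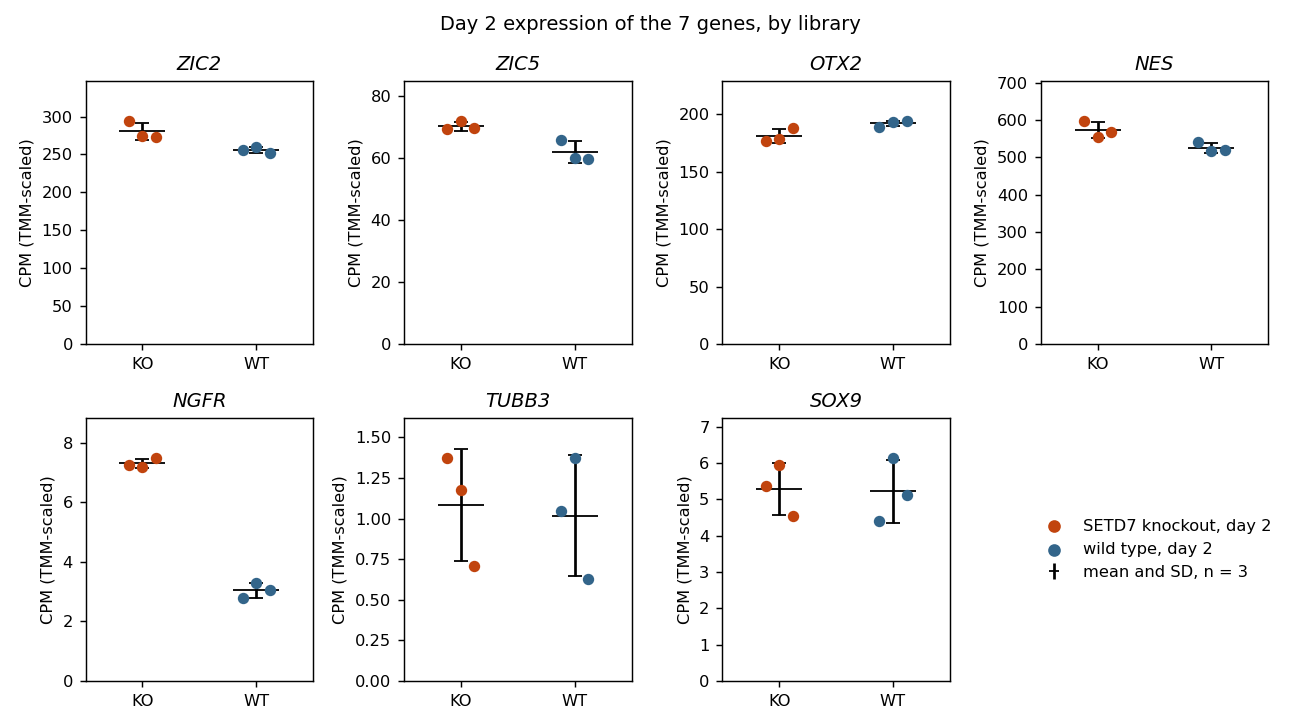
TMM-scaled CPM of the 7 genes in each day 2 library, KO left of WT, with the mean and SD of 3 libraries as horizontal line and bar, on axes from 0. ZIC2, ZIC5, NES and NGFR lie higher in all 3 KO libraries, OTX2 lower in all 3, and TUBB3 and SOX9 overlap.

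NES (chromosome 1, 156668763 to 156677397, minus strand) was the most abundant member at day 2 in both genotypes, also per length. NES was at 597, 555 and 568 CPM in the KO libraries, against 541, 517 and 519 CPM in the WT libraries. The lowest KO library lay above the highest WT library by 14.3 CPM. It averaged 573 ± 21.4 CPM in KO and 525 ± 13.2 CPM in WT (SD, n = 3 each), and the log2 difference in edgeR was 0.13 (SE 0.032; adjusted p 0.00377). With offsets for GC content and exonic length, added after the data were seen, NES no longer passed (log2 fold change 0.06, edgeR adjusted p 0.0788; range 0.00122 to 0.0788 over 14 alternatives). The same offsets left ZIC2 at 0.09 and ZIC5 at 0.16, both still past the threshold. The NES transcript has a GC content of 59.3%. At day 0 NES was at 53.9 FPKM in KO and 68.6 FPKM in WT, a log2 ratio of −0.34, and 21.03% of genes had a ratio at or below it.

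The NES window (chr1:156677358-156677657, minus strand) is given for comparison with the ZIC windows, since NES differed in the same direction as they did on both days. It held 4 copies of GGGCGG, none of the other 3 motifs, and 14 CG pairs, which equals the median of all windows.
NES: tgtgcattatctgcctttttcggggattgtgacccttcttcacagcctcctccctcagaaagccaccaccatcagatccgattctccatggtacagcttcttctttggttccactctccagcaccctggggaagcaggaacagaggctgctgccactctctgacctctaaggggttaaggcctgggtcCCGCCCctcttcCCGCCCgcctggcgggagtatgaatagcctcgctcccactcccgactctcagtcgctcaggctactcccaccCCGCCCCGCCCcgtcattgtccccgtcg

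OTX2 (chromosome 14, 56799905 to 56810479, minus strand) differed from ZIC2 and ZIC5 at day 2. It was at 177, 179 and 188 CPM in the KO libraries and 189, 193 and 194 CPM in the WT libraries. The KO libraries lay below the WT libraries without overlap, but KO library 3 came within 1.45 CPM of WT library 1. OTX2 averaged 181 ± 5.88 CPM in KO and 192 ± 2.51 CPM in WT (SD, n = 3 each) and did not pass the test (log2 fold change −0.09, SE 0.034, 95% interval −0.15 to −0.02 before adjustment, edgeR adjusted p 0.0694). Definitive endoderm markers (7 of 10 tested) summed to 9217 to 9379 CPM in KO, against 8393 to 8500 CPM in WT libraries, a sum made up mostly of CER1 (8432 CPM in KO, 7482 CPM in WT). CER1 was the 1 gene of that list that rose, while SOX17 (−0.56), PRDM1 (−0.74) and LEFTY2 (−0.46) fell (edgeR), and the median log2 fold change was −0.13. Lateral plate markers (10 of 10 tested, 3 higher and 4 lower) summed to 2915 to 2976 CPM in KO, against 2893 to 2983 CPM in WT libraries. Their part in the OTX2 values was not tested. All 3 KO libraries below all 3 WT libraries was a common outcome, found in 18.8% of genes tested, and all above in 18.9%. At day 0 OTX2 was at 7.20 FPKM in KO and 16.2 FPKM in WT, 55.5% lower in the knockout. Its log2 ratio of −1.07 was reached or exceeded downwards by 1.49% of genes. OTX1, its relative, was low but rose at day 2 (4.68 ± 0.266 CPM in KO, 3.23 ± 0.502 CPM in WT; SD, n = 3 each; log2 fold change 0.53, edgeR adjusted p 0.0192). OTX1 did not pass without WT replicate 1 (adjusted p 0.0963) or without KO replicate 2 (0.0642), within a range of 0.0160 to 0.0963 over the alternatives other than a test against a 1.2-fold change.

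NGFR (chromosome 17, 49495293 to 49515017, plus strand) had the largest day 2 difference of the members. It was at 7.24, 7.19 and 7.49 CPM in the KO libraries, against 2.79, 3.30 and 3.05 CPM in the WT libraries. The counts behind these values were 290, 251 and 223 in KO and 77, 106 and 92 in WT. The KO and WT libraries were well apart, with SDs of 0.164 CPM in KO and 0.259 CPM in WT. In edgeR its log2 fold change was 1.26 with an SE of 0.14 (adjusted p 3.72e-08), which ranked NGFR at 13 among the 1406 genes called higher. It was also the only member past a test against a 1.2-fold change (glmTreat in edgeR, adjusted p 2.12e-06), which 246 genes passed. The direction at day 0 was the reverse, with 6.05 FPKM in KO and 9.24 FPKM in WT (log2 ratio −0.54, reached or exceeded downwards by 10.1% of genes). With a pseudocount of 0.1 FPKM the ratio was −0.60, past 1.5-fold. Exons of opposite-strand transcripts cover 27.1% of the exonic bases of NGFR in GENCODE 29. The strand setting of the counting is not known here, so reads of NGFR and of these transcripts cannot be told apart. The 4 neural crest markers tested summed to 63.4 to 67.2 CPM in KO, against 72.7 to 75.6 CPM in WT libraries, NGFR included. That sum was mostly SNAI2 (43.9 CPM in KO, 54.9 CPM in WT), and of the 4 genes NGFR rose, SNAI2 fell and SOX9 and ERBB3 (9.09 CPM in KO, 10.7 CPM in WT) did not pass.

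No other listed gene of neurotrophin signalling passed the test at day 2. Of 17 listed genes 7 were tested, 1 of them higher (NGFR itself) and none lower, with a median log2 fold change of −0.07. MAGED1, an adaptor that binds NGFR, was at 341 CPM in KO and 358 CPM in WT (−0.07, edgeR adjusted p 0.0846), and it passed without KO replicate 1 (edgeR adjusted p 0.021) and with GC and length offsets (0.000509), within a range of 0.000509 to 0.259 over the alternatives other than a test against a 1.2-fold change. At day 0, 4 of the 11 with at least 1 FPKM were at least 1.5-fold lower in the knockout and none that much higher, where 8.77% of all genes were that much lower and 4.81% that much higher. These were the receptor NTRK3 (1.08 FPKM in KO, 3.52 FPKM in WT), the ligands NTF3 (0.448 and 1.68 FPKM) and NTF4 (1.04 and 2.94 FPKM), and MAGED1 (31.7 and 55.2 FPKM), KO given before WT. NTRK3, NTF3 and NTF4 were below 5 FPKM in both libraries, where ratios move with the pseudocount. A minimum of 5 FPKM leaves only MAGED1 of these genes. Exons of other genes also cover 50.4% of the exonic bases of NTF4, and 32.9% on the same strand.

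SOX9 (chromosome 17, 72121020 to 72126420, plus strand) showed no detectable difference at day 2. It was at 5.37, 5.95 and 4.54 CPM in the KO libraries and 4.41, 6.14 and 5.11 CPM in the WT libraries, with overlapping groups. In edgeR its log2 fold change was 0.02 with an SE of 0.15 (adjusted p 0.948), and the 95% interval of −0.28 to 0.31 leaves room for changes larger than those of ZIC2 and ZIC5. At day 0 SOX9 was at 1.73 FPKM in KO and 3.95 FPKM in WT (log2 ratio −0.86), and 3.27% of genes had a ratio at or below it. The ratio of a gene this low moved with the pseudocount, to −1.14 with 0.1 FPKM and to −0.41 with 5 FPKM, where it was no longer 1.5-fold lower. Of 4 tested SOX9 target and cartilage matrix genes, 2 rose and 1 fell at day 2, where 12.3% of all genes tested rose and 11% fell. The collagen genes COL11A1 (93.4 CPM in KO, 67.8 CPM in WT, log2 fold change 0.46, edgeR adjusted p 1.97e-09) and COL9A3 (60.5 CPM in KO, 44.3 CPM in WT, 0.45, edgeR adjusted p 6.3e-08) rose. COL9A2 fell to 140 CPM in KO, against 167 CPM in WT (−0.26, edgeR adjusted p 5.31e-06), so the collagen IX chains moved in opposite directions. At day 0 COL9A2 was at 2.22 FPKM in KO and 4.91 FPKM in WT, the only one of 6 measured genes of this list that was at least 1.5-fold lower, and none was that much higher. Among all genes 8.77% were that much lower and 4.81% that much higher. SOX8, the other SOX E gene with values, had them at day 0, at 4.28 FPKM in KO and 2.98 FPKM in WT.

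**Figure D2:**
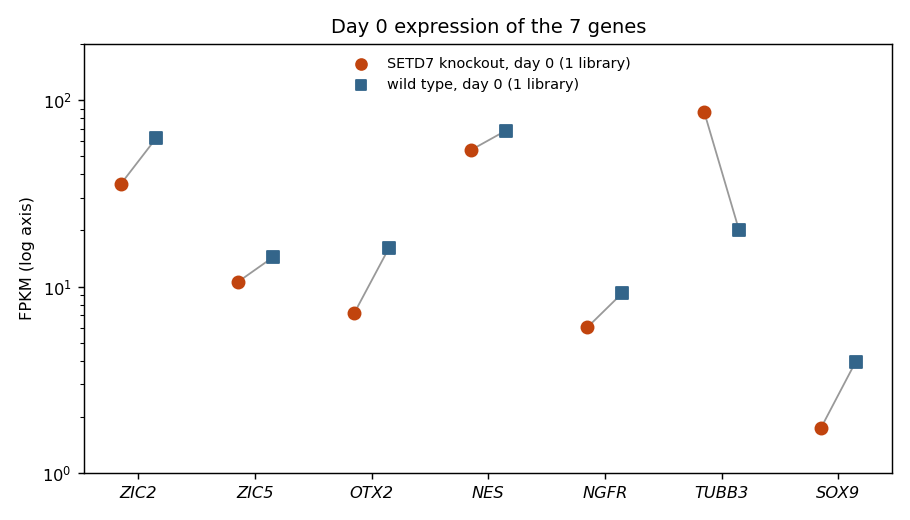
Day 0 FPKM of the 7 genes on a log axis, KO as circles left of WT as squares, 1 library each and so without error bars. The line of TUBB3 runs opposite to the other 6, with 86.7 FPKM in KO and 20.02 FPKM in WT.

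TUBB3 (chromosome 16, 89921392 to 89938761, plus strand) stood apart from the other members on both days. At day 0 it was at 86.7 FPKM in KO and 20.02 FPKM in WT, a 4.33-fold difference with a log2 ratio of FPKM + 1 of 2.06. Of 13284 genes only 5 had a higher ratio. At day 2 it was close to the limit of detection, at 1.37, 1.17 and 0.706 CPM in the KO libraries and 1.05, 1.37 and 0.630 CPM in the WT libraries. These values rest on 55, 41 and 21 counts in KO and 29, 44 and 19 counts in WT, and the groups overlapped. In edgeR its log2 fold change was 0.11 with an SE of 0.31 (95% interval −0.50 to 0.73, adjusted p 0.837). The day 0 ratio lies outside this interval, but it is in another unit and rests on 1 library per genotype. The interval holds for the day 2 counts as given. Reads may be shared with another gene, described below, and the interval does not cover that. Counting error alone amounts to 16.01% of the mean in KO and 18.1% in WT, and the SD between libraries was 31.6% of the mean in KO and 36.5% in WT.

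The downstream one of 2 TUBB3 windows (chr16:89923092-89923391, plus strand) is shown because TUBB3 had the largest difference of the group. It was the only one of the 9 member windows with TATAA, which began 30 bases before the start, and it also held 5 copies of GGGCGG and 1 of CCAAT. Its GC content was 79%, higher than that of 96.3% of all windows.
TUBB3: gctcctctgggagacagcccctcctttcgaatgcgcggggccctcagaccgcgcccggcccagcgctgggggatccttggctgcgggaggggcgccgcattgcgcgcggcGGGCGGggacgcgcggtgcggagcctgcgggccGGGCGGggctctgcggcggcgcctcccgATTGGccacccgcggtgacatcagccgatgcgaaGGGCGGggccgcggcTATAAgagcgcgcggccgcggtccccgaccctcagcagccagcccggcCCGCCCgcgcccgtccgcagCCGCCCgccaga

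A second annotated protein-coding gene, AC092143.1, runs through TUBB3 on the same strand. Its exons cover 1584 exonic bases of TUBB3 (35.8%) and 1293 of the 1944 bases annotated as coding in any TUBB3 transcript (66.5%). How reads shared by both genes were assigned is not given in the sources used here, for either table. In wild type, the day 2 level per length (CPM per kb of exon) was set over the day 0 FPKM. This ratio had a log2 value of −6.45 for TUBB3, where the median of 10809 genes was −0.69, and 51 genes were lower. The 10809 genes were tested at day 2 and had at least 1 FPKM in WT at day 0. Of 339 genes that share 25% or more of their exonic bases on the same strand, the median was −2.33 and 6.19% lay below TUBB3. Of 9037 genes that share none, the median was −0.60 and 0.243% lay below TUBB3. The 2 days differ in unit and possibly in counting, so the gap between them is not a measured change. The part of the overlap in the TUBB3 values was not tested.

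The other beta tubulins, the subunits that pair with alpha tubulin in microtubules, were mostly higher in the knockout at day 0. Of 6 measured besides TUBB3, 5 had higher FPKM in KO, 1 of them (TUBB2A) by at least 1.5-fold on the FPKM + 1 scale, and the median log2 ratio was 0.38. Over all 13284 genes, 53.8% had lower FPKM in KO and 4.81% were at least 1.5-fold higher, with a median log2 ratio of −0.03. These day 0 values rest on 1 library per genotype. TUBB2A was at 187 FPKM in KO and 118 FPKM in WT, TUBB2B at 269 FPKM in KO and 208 FPKM in WT, and TUBB4B at 128 FPKM in KO and 91.9 FPKM in WT. TUBB was at 50.6 FPKM in KO and 42.4 FPKM in WT, and TUBB6 at 21.6 FPKM in KO and 16.2 FPKM in WT. TUBB4A went the other way, at 12.9 FPKM in KO and 13.9 FPKM in WT. At day 2, 1 of 4 tested beta tubulins besides TUBB3 rose and 1 fell, where 12.3% of all genes tested rose and 11% fell. TUBB2B rose to 405 ± 17.4 CPM in KO, against 348 ± 14.3 CPM in WT (SD, n = 3 each; log2 fold change 0.22, edgeR adjusted p 1.35e-05), and TUBB6 fell to 207 ± 1.90 CPM in KO, against 239 ± 3.80 CPM in WT (−0.21, edgeR adjusted p 9.31e-06). TUBB2A (241 CPM in KO, 231 CPM in WT, 0.06, edgeR adjusted p 0.153) and TUBB4B (508 CPM in KO, 530 CPM in WT, −0.06, edgeR adjusted p 0.167) did not pass, though TUBB4B did with GC and length offsets (−0.08, edgeR adjusted p 0.00831). TUBB, with 2 to 9 counts per library, was too low to be tested at day 2. Beta tubulin genes are closely alike in sequence, so their counts are uncertain where reads fit more than one.

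**Figure D3:**
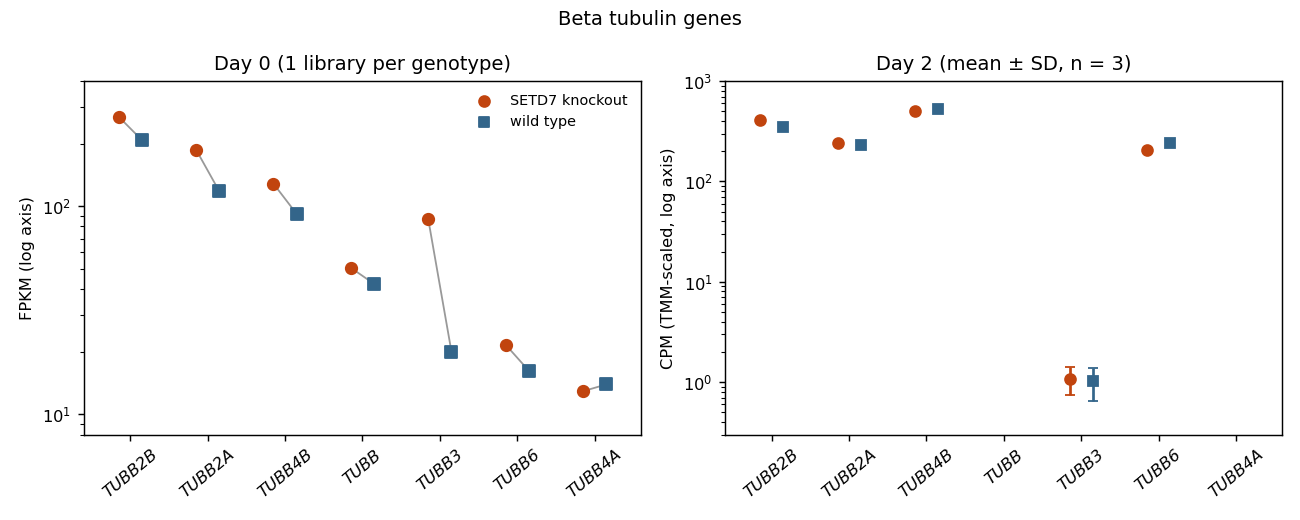
Beta tubulin genes with FPKM at day 0 in 1 library per genotype (left) and mean CPM ± SD of 3 libraries at day 2 (right), on log axes, KO as circles left of WT as squares. TUBB3 has the steepest line at day 0, and at day 2 it lies near 1 CPM while TUBB2A, TUBB2B, TUBB4B and TUBB6 lie at 207 CPM or higher.

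Per kb of exon, the order of the day 2 levels in KO libraries was NES (103 ± 3.86 CPM per kb), ZIC2 (84.7 ± 3.53), OTX2 (55.4 ± 1.80), ZIC5 (15.1 ± 0.304), NGFR (1.76 ± 0.0396), SOX9 (1.34 ± 0.181) and TUBB3 (0.245 ± 0.0774; SD, n = 3 each). In WT libraries it was NES (94.5 ± 2.37 CPM per kb), ZIC2 (77.4 ± 1.05), OTX2 (58.7 ± 0.766), ZIC5 (13.3 ± 0.736), SOX9 (1.33 ± 0.221), NGFR (0.734 ± 0.0624) and TUBB3 (0.230 ± 0.0839; SD, n = 3 each). The genotypes share this order except that NGFR stood above SOX9 in KO and below it in WT, and no neighbours overlapped in their libraries in either genotype. At day 0 the order by FPKM began with TUBB3, NES and ZIC2 in KO and with NES, ZIC2 and TUBB3 in WT, and it ended with NGFR and SOX9 in both.

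**Figure D4:**
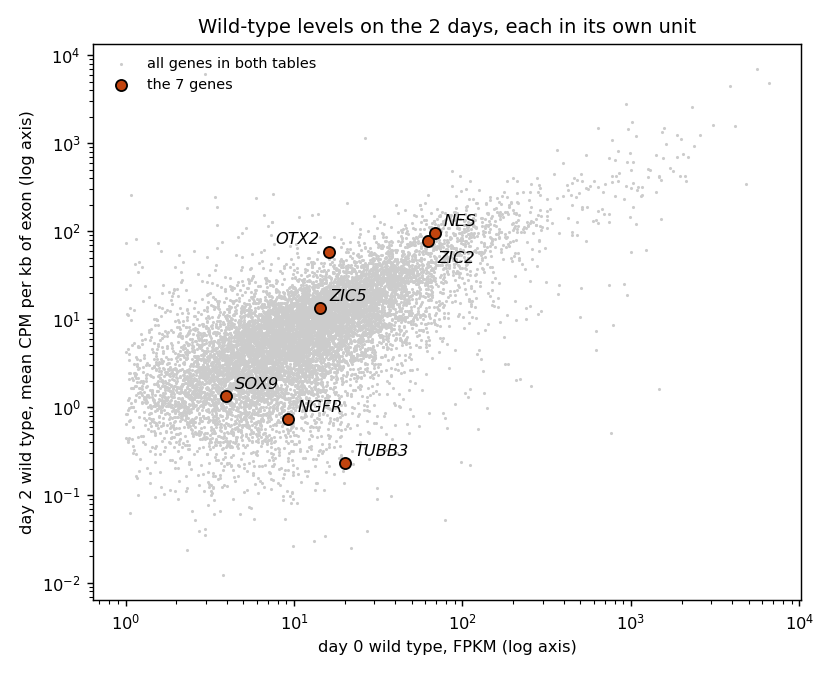
Wild-type level at day 2 (mean CPM per kb of exon, 3 libraries) against wild-type FPKM at day 0 (1 library), both on log axes, for 10809 genes in grey and the 7 members in red. OTX2 lies high and TUBB3 and NGFR lie low in the cloud, at the percentiles 97.7, 0.48 and 4.91 of the day 2 over day 0 ratio. Only genes with at least 1 FPKM in WT at day 0 are included. Genes below that at day 0 but abundant at day 2 are therefore left out, such as MIXL1 (0.598 FPKM and 1467 CPM in WT).

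Percentiles of level were taken among the 10809 genes tested at day 2 with at least 1 FPKM in WT at day 0. At day 2 OTX2 stood at percentile 93.8 of per-length levels in KO and 94.0 in WT. At day 0 it stood at percentile 35.6 in KO and 63.9 in WT. ZIC2 and NES stood above percentile 95 on day 2 in both genotypes. NGFR stood at percentile 17.1 in KO and 6.43 in WT at day 2, and at percentile 29.98 in KO and 43.3 in WT at day 0.

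Over the remaining listed neural and related genes, day 2 changes went both ways. Of 49 tested genes other than the members, 13 rose and 7 fell, with a median log2 fold change of 0.03. Among all genes tested, 12.3% rose and 11% fell (23.3% in all). Among all genes measured at day 0, 8.77% were at least 1.5-fold lower in KO and 4.81% that much higher. Of 12 neural progenitor genes tested at day 2, 3 rose and 2 fell. Besides NES these were SOX4 (257 CPM in KO, 202 CPM in WT, 0.35, edgeR adjusted p 1.53e-08), a transcription factor of progenitors and many other tissues, and the adhesion molecule NCAM1 (206 CPM in KO, 168 CPM in WT, 0.29, edgeR adjusted p 2.63e-07). The filament gene VIM fell to 657 CPM in KO, against 740 CPM in WT (−0.17, edgeR adjusted p 0.000455), and the fatty acid binding protein FABP7 to 4.48 CPM in KO, against 6.61 CPM in WT (−0.56, edgeR adjusted p 0.00394). Exons of opposite-strand transcripts cover 24.4% of the exonic bases of VIM, so the limit given for NGFR holds for VIM too. FABP7 did not pass without WT replicate 3 (−0.42, edgeR adjusted p 0.0629), the highest within its range of 0.00243 to 0.0629 over the alternatives other than a test against a 1.2-fold change. Of 12 progenitor genes measured at day 0, 2 were at least 1.5-fold lower in KO and none that much higher, namely the Notch ligand DLL1 (0.435 FPKM in KO, 1.40 FPKM in WT) and NCAM1 (1.178 FPKM in KO, 2.316 FPKM in WT). MSI1, an RNA-binding protein of progenitors, was at 59.8 CPM in KO and 54.8 CPM in WT, a difference that missed the threshold (0.12, edgeR adjusted p 0.0798) but passed with upper-quartile scaling (0.0472) and without KO replicate 2 (0.0472).

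Of 10 neural crest genes tested, 2 rose and 3 fell, where 12.3% of all genes tested rose and 11% fell. NGFR and TWIST1 (9.80 CPM in KO, 5.26 CPM in WT, 0.89, edgeR adjusted p 1.35e-06) rose. SNAI2 fell (43.9 CPM in KO, 54.9 CPM in WT, −0.32, edgeR adjusted p 1.88e-05). MSX2 fell as well (58.5 CPM in KO, 72.3 CPM in WT, −0.30, edgeR adjusted p 6.51e-06). MSX1 fell too (64.2 CPM in KO, 72.5 CPM in WT, −0.18, edgeR adjusted p 0.00364). TWIST1, SNAI2, MSX2 and MSX1 are all transcription factors that the mesoderm also expresses. TFAP2A was at 5.61 CPM in KO and 5.53 CPM in WT (0.02, edgeR adjusted p 0.933). The list holds NGFR and SOX9 themselves, and its median log2 fold change was 0.02. Of 7 crest genes measured at day 0, 2 were at least 1.5-fold higher in KO, the transcription factor ETS1 (21.7 FPKM in KO, 9.0001 FPKM in WT) and B3GAT1 (8.38 FPKM in KO, 4.86 FPKM in WT), the enzyme that makes the HNK1 epitope. SOX9 was the 1 gene of the list that was at least 1.5-fold lower. Among all genes measured, 4.81% were that much higher and 8.77% that much lower.

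Of 11 neuronal genes tested, 3 rose and none fell, where 12.3% of all genes tested rose and 11% fell. The median log2 fold change of the list was 0.01. ELAVL4, a neuronal RNA-binding protein, was at 13.9 CPM in KO and 8.66 CPM in WT (0.69, edgeR adjusted p 3.22e-06), and GAP43, a growth cone protein, at 18.6 CPM in KO and 13.7 CPM in WT (0.44, edgeR adjusted p 0.000111). RBFOX3 (9.87 CPM in KO, 8.02 CPM in WT, 0.30, edgeR adjusted p 0.0378) passed with all 6 libraries but in none of the fits that left out a library (edgeR adjusted p 0.0586 to 0.118), within a range of 0.0289 to 0.132 over the alternatives other than a test against a 1.2-fold change. Its adjusted p was 0.0502 in DESeq2 and 0.0582 with the replicate block in edgeR. At day 0 the neurofilament gene NEFL (5.42 FPKM in KO, 9.02 FPKM in WT) and STMN2 (1.38 FPKM in KO, 2.69 FPKM in WT) were at least 1.5-fold lower in KO among 13 neuronal genes, and TUBB3 alone was that much higher. The shares of all genes were 8.77% lower and 4.81% higher.

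Of 18 neural plate and forebrain regulators only RAX was tested, at 2.74 CPM in KO and 1.86 CPM in WT (0.54, edgeR adjusted p 0.0635). Of 13 midbrain, hindbrain and spinal cord regulators 3 were tested. IRX5 rose to 13.4 CPM in KO, against 9.69 CPM in WT (0.46, edgeR adjusted p 0.00178). IRX3 was at 230 CPM in KO and 214 CPM in WT (0.10, edgeR adjusted p 0.0271) and did not pass without WT replicate 1 (0.0732), WT replicate 2 (0.16) or KO replicate 1 (0.0716). Nor did IRX3 pass edgeR with the replicate block (0.0663) or with GC and length offsets (log2 fold change 0.04, adjusted p 0.262), the highest of a range from 0.0102 over the alternatives other than a test against a 1.2-fold change. GLI3, a mediator of hedgehog signalling, was at 22.4 CPM in KO and 20.5 CPM in WT (0.13, edgeR adjusted p 0.224). At day 0, the forebrain regulator HESX1 was at 4.74 FPKM in KO and 3.44 FPKM in WT, SOX3 at 7.31 FPKM in KO and 9.86 FPKM in WT, and POU3F1 at 4.97 FPKM in KO and 5.44 FPKM in WT.

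**Figure D5:**
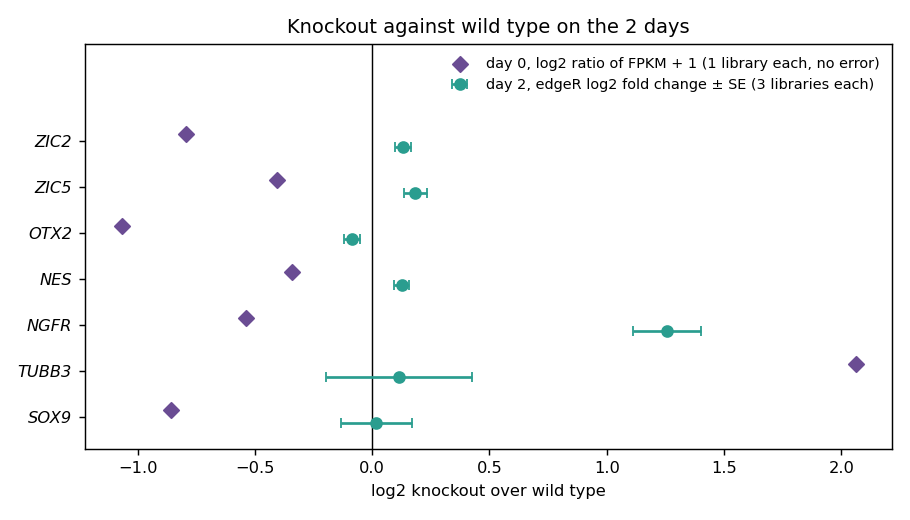
Log2 KO over WT of the 7 genes, as the ratio of FPKM + 1 at day 0 (diamonds, 1 library per genotype, no error) and as the edgeR fold change at day 2 (circles, bars ± SE, 3 libraries per genotype). ZIC2, ZIC5, NES and NGFR lie left of 0 at day 0 and right of it at day 2, OTX2 lies left on both days, and TUBB3 lies far right at day 0.

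The day 0 and day 2 comparisons share no library, and whether the effect of the genotype differed between days could not be tested with 1 library per genotype at day 0. Side by side, ZIC2, ZIC5, NES and NGFR were lower in KO at day 0 and higher in all 3 KO libraries at day 2. That combination held for 1238 of the 10994 genes measured on both days (11.3%). OTX2 was lower in KO at day 0 and in all 3 KO libraries at day 2.

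Likeness to each member was measured as Pearson's r of log2 CPM over the 6 day 2 libraries, among the tested genes whose mean was 5 CPM or more. The genes most like ZIC2 were VCL (r = 0.998) and GCN1 (0.997), those most like NGFR were TRIM5 (0.999) and PTGIS (0.999), and those most like NES were GBF1 (0.99) and PTPN14 (0.99). ZIC5 was closest to ELK3 (0.997) and YBX2 (0.991), OTX2 to PIFO (0.994) and CDCA3 (0.987), TUBB3 to XPC (0.986) and ZNF786 (0.976), and SOX9 to IQCA1 (0.99) and DTL (0.982). These values are descriptions over 6 points that share the genotype difference and, within each library, its depth. TUBB3, at 19 to 55 counts per library, and SOX9 showed no genotype difference to share. Each pair is also the highest of all genes compared, so values this high can arise without any relation. Between members, ZIC2 and NES were most alike (0.932), and OTX2 ran opposite to ZIC2 (−0.906).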

How the data were processed

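RNA-seq of 8 libraries was used. TRIzol extraction and a SMARTER mRNA-Seq kit are stated per the labels' protocols. The submitters' processing notes name HISAT2, StringTie and GRCh38 (hg38) and give no versions. Counter, strand setting and annotation release: not given in the sources used here. The authors, per the file headers, deposited counts per gene for day 2 (whole numbers, taken as not normalized) and FPKM, scaled for length and depth, for day 0. The depth at day 0 is unknown, so day 0 values carry no interval. An unheaded list of gene names in the day 0 table was not used.

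Day 2 counts were filtered with filterByExpr (11475 genes), scaled by TMM and fitted with edgeR 4.0.16 in R 4.3.3 (robust quasi-likelihood F test, 2-sided; a model of genotype alone; Benjamini-Hochberg adjusted p under 0.05 over all genes tested). SE is the log2 fold change over the square root of F, and the 95% intervals are 1.96 SE on each side. The biological coefficient of variation was 4.14%, and libraries of 1 genotype differed by more than sampling noise (chi-square per degree of freedom 3.04 to 8.95). KO library 1 gave the highest of these values, 8.95 against KO library 2 and 6.10 against KO library 3. The other pairs of 1 genotype were at 3.04 to 4.35. Day 0 values were compared as log2 ratios of FPKM + 1, for genes with at least 1 FPKM in either library. Positions, exonic length, GC content and exon overlaps came from GENCODE 29 (GRCh38; bedtools 2.31.1), with 98.9% of day 2 symbols matched. Promoter windows came from RefSeq (GRCh38.p14), which matched 5 of the 7 members; NGFR and SOX9 had no window used here. The motifs and the windows printed were chosen after the windows were seen.

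The members and the gene lists were chosen with earlier results of these data known, so lists are described by counts and medians without a set test. Named from each list were genes past the threshold, up to 6 by smallest p, other members only with their values, and, for likeness, 2 genes per member. The day 0 values of TUBB, TUBB2B and TUBB4A were added beyond this rule after they were seen, to complete the family, as were the marker genes named beside a summed level. Some listed genes are not reported here. Alternatives were DESeq2 size factors, upper-quartile scaling, no filter, a mean of at least 1 CPM, DESeq2 1.42.0, limma-voom (limma 3.58.1), a replicate block and leaving out each library. For day 0 they were pseudocounts of 0.1 and 5 FPKM, centring, no filter and a minimum of 5 FPKM. GC and length offsets (loess), glmTreat against a 1.2-fold change and the length of the longest transcript were added after the data were seen. The day 2 fit was tested on simulated counts. Python 3.11.15 with pandas 2.3.3, numpy 2.4.6 and matplotlib 3.10.9 was used.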

Additional observations from a re-analysis of the deposited data

Results flagged for a closer look

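The following genes had opposite signs on the 2 days, with every KO library at day 2 on one side of every WT library; the difference between days was not tested. Of the members, ZIC2 had a log2 fold change of 0.13 at day 2 and a log2 ratio of −0.79 at day 0, ZIC5 of 0.18 and −0.41, NES of 0.13 and −0.34, and NGFR of 1.26 and −0.54. Of the listed genes, IRX3 had 0.10 at day 2 and −0.77 at day 0, NCAM1 0.29 and −0.61, COL11A1 0.46 and −0.06, and TUBB6 −0.21 and 0.39. MSI1 (0.12 at day 2, −0.55 at day 0), GLI3 (0.13, −0.13) and TUBB4B (−0.061, 0.48) were also of opposite sign, and at day 2 they missed the threshold (edgeR). Of the marker genes, NANOG had −0.57 at day 2 and 0.67 at day 0, and LEFTY2 −0.46 and 0.89. The day 0 values rest on 1 library per genotype.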

How the results depend on the processing

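ZIC2, ZIC5 and NGFR kept their direction and stayed past the threshold in all 14 alternatives other than glmTreat, as did NES in 13 of 14, and OTX2, TUBB3 and SOX9 passed in none. With the replicate block, 2210 genes and 4 members were called, against 2668 genes and 4 members without it. ZIC2 had an edgeR adjusted p of 0.0153 with the block. Same-numbered libraries did not deviate together (r = −0.07, −0.07 and −0.04), so the numbers were not taken to pair them. With GC and length offsets NES was at a log2 fold change of 0.060 (adjusted p 0.0788) and SOX9 at −0.00088, the midbrain list had 1 call (2 without offsets) and the neurotrophin list 2 (1 without); the cause was not tested. The midbrain list also had 1 call with the replicate block. The balance of all genes called moved with the scaling. In the main fit 1406 rose and 1262 fell, with upper-quartile scaling 1605 and 1010, and with GC and length offsets 1286 and 2062.

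Against a 1.2-fold change glmTreat, which asks for a larger effect by construction, called 246 genes and 1 member, with ZIC2 (0.13), ZIC5 (0.18) and NES (0.13) not called. It called 0 of the OTX, midbrain, neural progenitor and beta tubulin genes, 1 neuronal gene and 2 neural crest genes. Leaving out 1 library, ZIC2 ran from 0.10 to 0.15, TUBB3 from −0.14 to 0.41 and SOX9 from −0.086 to 0.15. The lowest of these fits for ZIC2 (0.099) and for NES (0.098) were those without KO replicate 1. Both genes still passed there (edgeR adjusted p 0.0104 and 0.0050). TFAP2A (0.02) turned to −0.024 with GC and length offsets and ran from −0.026 to 0.051 when 1 library was left out. The OTX list had 0 to 1 calls, the midbrain list 1 to 2 and the neurotrophin list 1 to 2.

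At day 0, no member changed direction. With pseudocounts of 0.1 and 5 FPKM and after centring on the median, the log2 ratios were −0.81, −0.73 and −0.76 for ZIC2, −0.44, −0.31 and −0.37 for ZIC5, and −1.16, −0.80 and −1.04 for OTX2. They were −0.35, −0.32 and −0.31 for NES, −0.60, −0.37 and −0.51 for NGFR, 2.11, 1.87 and 2.09 for TUBB3, and −1.14, −0.41 and −0.83 for SOX9. Genes at least 1.5-fold lower in KO numbered 346 and those higher 270 with a pseudocount of 5 FPKM, and the lower ones 757 with a minimum of 5 FPKM, against 1165 lower and 639 higher. With a pseudocount of 5 FPKM SOX9 was no longer at least 1.5-fold lower (2 members were, against 3), with 0.1 FPKM NGFR was as well (4 members), and SOX9 is left out by a minimum of 5 FPKM. TUBB3 at day 2 rests on 19 to 55 counts per library.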
